A study of Homo sapiens with 23 samples.

Results

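The 10 genes described here are the ligands TGFA, HBEGF, EREG, BTC and NRG1, the receptors EGFR, ERBB2 and ERBB3, and ERRFI1 and LRIG1, which encode inhibitors of these receptors. They were listed by name, with earlier results of these data known, and are 10 of 19775 genes and 39 of 54675 probe sets on the arrays. The cells were MCF10A-ER-Src, a non-transformed human mammary epithelial line with a fusion of v-Src and the hormone-binding domain of the estrogen receptor. The ligand 4-hydroxytamoxifen (TAM, 1 µM) activates this kinase, and ethanol (EtOH) served as its vehicle control. All cells received 25 nM of an siRNA pool, non-targeting (siNEG, called siSCM in the methods) or against STAT3 (siSTAT3), 48 h before TAM or EtOH, which was then given for 4 or 24 h. The 23 arrays fall into 8 groups of 3, except siSTAT3 cells with TAM for 24 h, of which replicates 2 and 3 were analysed. The medium of every group held EGF at 20 ng/ml together with serum, insulin, hydrocortisone and cholera toxin, so the receptor EGFR had an added ligand throughout. It is 1 cell line, the methods call the replicates biological without saying how they were grown apart, and the p-values measure the spread between these samples.

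ERBB receptors are tyrosine kinases of the cell surface that work in pairs. EGFR binds TGFA, and HBEGF, EREG and BTC bind it and ERBB4, whereas NRG1 binds ERBB3 and ERBB4. ERBB2 has no known ligand and pairs with the others, and ERBB3 has little kinase activity of its own and passes the signal to PI3 kinase. The ligands are made as membrane proteins and cut free by proteases such as ADAM17. In mammary epithelium they drive growth and duct formation, and MCF-10A cells depend on EGF in culture. ERRFI1 (also known as MIG6) binds the kinase domain of EGFR and blocks it, and LRIG1 promotes degradation of the receptors. Both inhibitors are themselves induced when the receptors signal.

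The signal of each probe set, a group of short probes for 1 transcript, is in linear arbitrary units, and a gene is represented by the probe set with its highest mean log2 signal. Values of different genes come from different probes and were not compared with each other. A gene was said to rise, fall or differ when limma, fitted to all 23 arrays and adjusted over all probe sets, gave an adjusted p under 0.05. STAT3 itself lay between 3914 and 6753 units on the siNEG arrays and between 298 and 495 units on the siSTAT3 arrays, with log2 differences of -3.94 to -3.39 at equal treatment and time. Of the basal and epithelial markers KRT5, KRT14, CDH1 and ITGB4, 4 of 4 exceeded 100 units in every group, with summed levels of 37461 to 46107 units. The group means of single markers of this list stood in opposite order between the siRNAs, untested. KRT14 lay between 14641 and 19925 units in the siNEG groups and between 10072 and 12830 units in the siSTAT3 groups, and CDH1 between 3082 and 7568 units and between 9291 and 11555 units. Of the luminal list, 2 of 5 exceeded 100 units on average, GATA3 and FOXA1, with summed levels of 1181 to 2002 units over the groups, and PGR, TFF1 and KRT19 lay at or below 38.2 units. Of the fibroblast list, 2 of 4 did, COL1A1 and DCN, and the list's sum was 5731 units in siNEG EtOH and 7318 units in siNEG TAM cells at 24 h, against 3043 and 2865 units in the siSTAT3 cells of that time. At 4 h that sum was 3151 and 3297 units in siNEG and 2147 and 2305 units in siSTAT3 cells. Over the groups, COL1A1 ran from 288 to 937 units and DCN from 1571 to 6858 units, while COL3A1 and PDGFRB were at or below 46.3 units. Of the endothelial list 1 of 3 did, PECAM1, with sums of 213 to 444 units, and of the immune list 0 of 2, with sums of 83.3 to 108 units. The part of these markers in the results that follow was not tested.

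After 24 h of TAM, siNEG cells held more RNA of the ligands TGFA and EREG and less of the receptors EGFR, ERBB2 and ERBB3. These were 2 genes higher and 3 lower of 10, where 6.06% of all 19775 genes were higher and 9.31% lower. The median log2 change was -0.31 over the 10 genes and -0.04 over all genes. Beside these changes, the epithelial cadherin CDH1 read 6861 units with EtOH against 3082 units under TAM at 24 h in siNEG cells. In siSTAT3 cells it read 9291 and 11389 units. Of the same list, ITGB4 went the other way in siNEG cells at 24 h, from 1758 to 2331 units. KRT5 read 17564 and 14453 units there and KRT14 19925 and 17966 units. The part of these markers in the result was not tested. In such bulk samples, fewer cells of a type and less RNA per cell cannot be told apart. After 4 h only EGFR had passed the test, so that 0 were higher and 1 was lower, where 1.67% of all genes were higher and 1.58% lower. Among the 10823 genes with a mean of at least 100 units, to which all 10 belong, the share lower was 2.67% at 4 h. At 24 h 9.80% of these were higher and 15.8% lower. NRG1, with a mean of 138 units, belongs to them through its groups of 4 h, as its group means at 24 h were 40.3 to 81.7 units.

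TGFA, the EGFR ligand transforming growth factor alpha (chr2:70447284-70553826, GRCh38.p14), gave the largest rise of the 10. Its signal was 888, 1042 and 960.1 units in siNEG EtOH cells at 24 h and 2513, 2512 and 2291 units with TAM. The TAM arrays stood far above the EtOH arrays, without overlap. The log2 change was 1.34 (SE 0.09), 2.53-fold, with an adjusted p of 1.86e-08. At 4 h the arrays read 1517, 1738 and 1641 units with EtOH and 1909, 1768 and 2035 units with TAM. These groups did not overlap, but the log2 change of 0.22 had an interval of 0.03 to 0.41 and an adjusted p of 0.299. The TAM effect at 24 h exceeded that at 4 h by 1.12 on the log2 scale (SE 0.13, adjusted p 4.10e-05).

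EREG, epiregulin (chr4:74365145-74388749), read 1123, 1420.1 and 1478 units on the siNEG EtOH arrays of 24 h, and the TAM arrays of that time read 3081, 2825 and 2509 units. No TAM array reached down to the EtOH range, and the log2 change was 1.07 (SE 0.17), 2.10-fold, with an adjusted p of 0.000394. At 4 h its signals were 1927, 2155 and 1919.6 units with EtOH and 1646, 1452 and 2301 units with TAM. Here TAM replicate 3 was the highest of the 6 arrays and TAM replicate 2 the lowest, and the interval of the log2 change was -0.55 to 0.19. The TAM effects on EREG at the 2 times differed by 1.25 (SE 0.25, adjusted p 0.00637). TGFA and EREG were thus 2 of 10 genes whose TAM effect was higher at 24 h than at 4 h, and 0 were lower, where 2.97% and 2.62% of all genes were.

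HBEGF, heparin-binding EGF-like growth factor (chr5:140332843-140346603), read 707, 836 and 673 units with EtOH against 1012, 1067 and 952 units under TAM at 24 h in siNEG cells. Every TAM array was above every EtOH array, with a log2 change of 0.46 (interval 0.09 to 0.82) and an adjusted p of 0.110. Its second probe set above 100 units rose from 225 ± 27.8 to 403 ± 53.9 units (SD, n = 3), a log2 change of 0.84 (SE 0.14) with an adjusted p of 0.000372. The call for HBEGF therefore differed between its probe sets, while the direction was the same. At 4 h it read 1363 ± 216 units with EtOH and 1533 ± 33.0 units with TAM (SD, n = 3), and the ranges overlapped.

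BTC, betacellulin (chr4:74744759-74794523), lies on the same chromosome as EREG. It read 217 ± 7.35 units with EtOH against 217 ± 2.74 units under TAM at 24 h in siNEG cells (SD, n = 3), and the interval of the log2 change was -0.50 to 0.50. NRG1, neuregulin 1, on chromosome 8, read 66.8, 72.1 and 63.9 units with EtOH against 45.0, 35.4 and 40.4 units under TAM at 24 h. The groups did not overlap, all values were below 100 units, and the log2 change of -0.75 had an adjusted p of 0.0700.

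**Figure D1:**
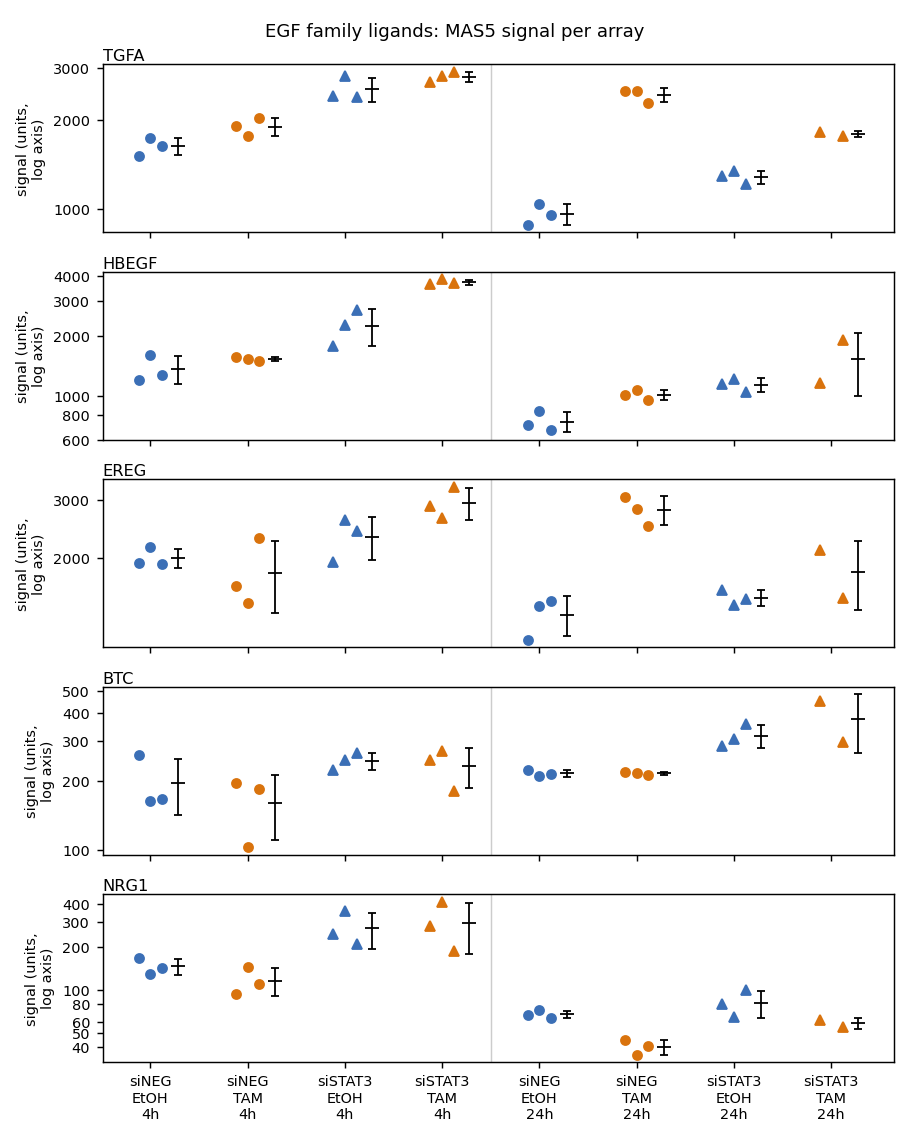
MAS5 signal of the 5 ligands in arbitrary units on a log axis, 1 point per array in each of the 8 groups (circles siNEG, triangles siSTAT3, blue EtOH, orange TAM), with black marks for the mean and SD. Among the groups of 24 h, TGFA and EREG stand highest in siNEG cells with TAM, at 2439 and 2805 units on average, and HBEGF stands highest in siSTAT3 cells with TAM at 4 h, at 3735 units.

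EGFR (chr7:55019017-55211628) read 5984, 5947 and 5744 units in siNEG EtOH cells at 4 h and 4405, 4007 and 4652 units with TAM. All TAM arrays were below all EtOH arrays, a log2 change of -0.44 (SE 0.08), 1.36-fold lower, with an adjusted p of 0.00516. At 24 h the values were 4170.3, 4267 and 4253 units with EtOH and 3386, 3425 and 3147 units with TAM. Again the groups did not overlap, and the log2 change was -0.35 (SE 0.08, adjusted p 0.00759). The TAM effects on EGFR at 4 and 24 h differed by 0.09, with an interval of -0.15 to 0.33.

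ERBB2 (chr17:39688094-39728658), known as HER2, read 753, 645 and 719 units with EtOH against 489, 467 and 615 units under TAM at 24 h in siNEG cells. TAM replicate 3 came close to the EtOH range without reaching it, and the log2 change was -0.44 (SE 0.12, adjusted p 0.0294). This call was lost without siNEG EtOH 24 h replicate 1 or 3 or siNEG TAM 24 h replicate 1 or 2, with adjusted p up to 0.132. At 4 h ERBB2 read 507 ± 79.7 units with EtOH and 503 ± 39.3 units with TAM (SD, n = 3), with an interval of the log2 change of -0.27 to 0.26.

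ERBB3 (chr12:56080108-56103505) read 575, 665 and 560.0 units with EtOH against 427, 418 and 426 units under TAM at 24 h in siNEG cells. The TAM arrays lay close together below the EtOH arrays, and the log2 change was -0.50 (SE 0.12, adjusted p 0.0111). Without siNEG EtOH 24 h replicate 2, the highest of them, the adjusted p was 0.0630. At 4 h the values were 277, 275 and 306 units with EtOH and 238, 220.4 and 216 units with TAM, without overlap, and the log2 change of -0.35 had an adjusted p of 0.193.

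Neither inhibitor passed the test with TAM in siNEG cells. ERRFI1 (chr1:8011727-8026309) read 4149, 4555 and 3941 units with EtOH against 3459, 3676 and 3391 units under TAM at 24 h. The arrays did not overlap, and the log2 change of -0.26 had an interval of -0.45 to -0.07 and an adjusted p of 0.0740. LRIG1 (chr3:66378797-66501121) read 499.5, 476 and 641 units with EtOH and 360.0, 339 and 379 units with TAM at that time. It too was lower on every TAM array, with a log2 change of -0.57 (interval -0.97 to -0.17) and an adjusted p of 0.0635. With probe sets of low signal left out of the test, 9 of the 10 genes passed at 24 h in siNEG cells, 3 higher and 6 lower, all but BTC. The share of all genes that passed under this filter was not computed. The filter kept a probe set with any group mean of at least 100 units. NRG1 was kept through its groups of 4 h, as its means at 24 h were 67.6 units with EtOH and 40.3 units with TAM.

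**Figure D2:**
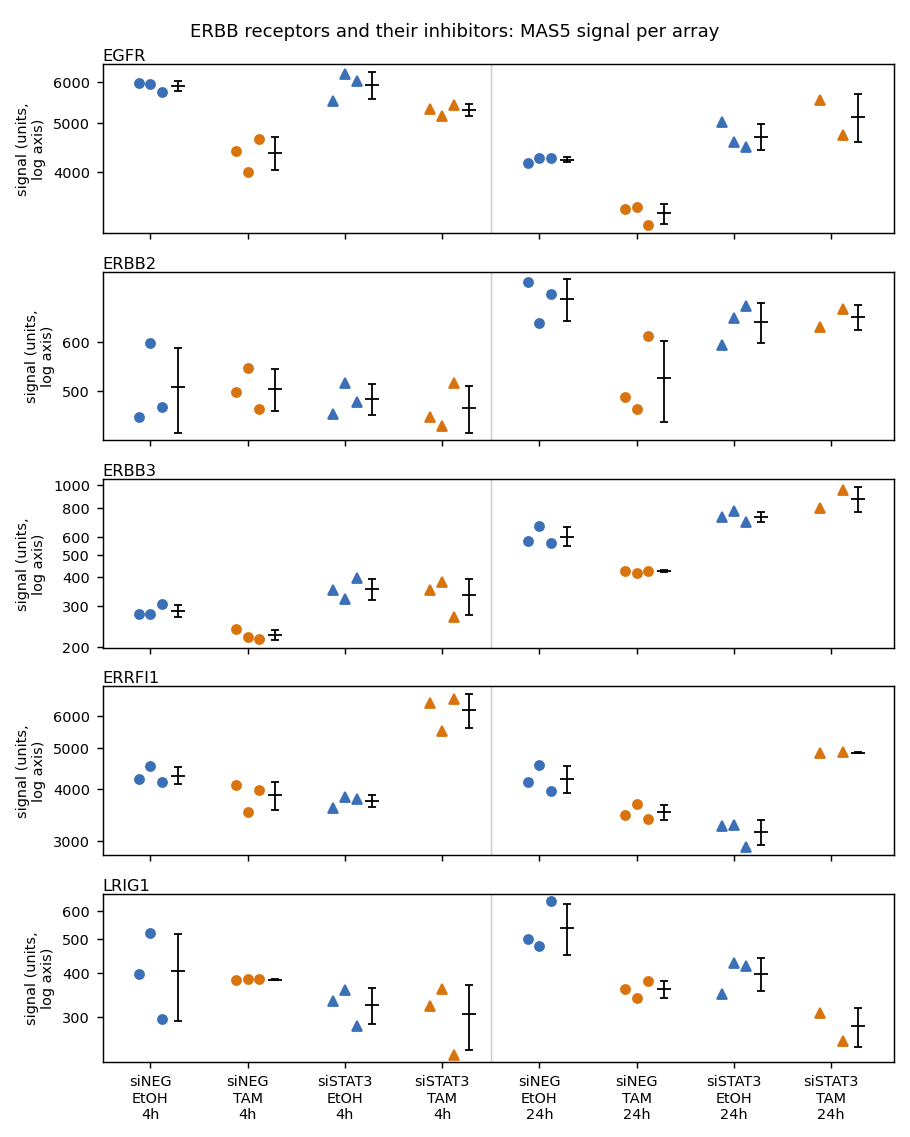
MAS5 signal of the 3 receptors and 2 inhibitors in arbitrary units on a log axis, 1 point per array in each of the 8 groups (circles siNEG, triangles siSTAT3, blue EtOH, orange TAM), with black marks for the mean and SD. ERRFI1 stands highest in siSTAT3 cells with TAM, at 6176 units at 4 h and 4884 units at 24 h on average, and ERBB3 is higher at 24 h than at 4 h in every condition.

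In siSTAT3 cells, TAM raised ERRFI1 at both times and TGFA at 24 h, and none of the 3 receptors passed the test. At 4 h 1 of 10 genes was higher and 0 were lower, where 0.531% of all genes were higher and 0.288% lower. At 24 h 2 were higher and 0 lower, where 2.00% and 0.748% of all genes were.

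ERRFI1 read 3593, 3828 and 3778 units with EtOH against 6435, 5506 and 6588 units under TAM at 4 h in siSTAT3 cells. Each TAM array exceeded each EtOH array, by a log2 change of 0.72 (SE 0.09), 1.65-fold, with an adjusted p of 0.000813. At 24 h the values were 3262, 3269.5 and 2891 units with EtOH and 4874 and 4894 units with TAM. The log2 change was 0.64 (SE 0.10, adjusted p 0.00189), again without overlap. TGFA at 24 h read 1294, 1346 and 1219 units with EtOH and 1829 and 1772 units with TAM in siSTAT3 cells. That log2 change was 0.49 (SE 0.10, adjusted p 0.0174), and the call was lost without siSTAT3 EtOH 24 h replicate 1 or 3 or either TAM array, with adjusted p up to 0.119. When 1 of the 2 TAM arrays is left out, the other is assumed to vary like the other groups.

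HBEGF at 4 h read 1774, 2271 and 2719.6 units with EtOH and 3655, 3863 and 3686 units with TAM in siSTAT3 cells. The TAM arrays were all above the EtOH arrays, with a log2 change of 0.75 (interval 0.39 to 1.11) and an adjusted p of 0.0650. Its second probe set passed at 4 h (log2 0.71, SE 0.14, adjusted p 0.0231) and at 24 h (log2 1.05, SE 0.15, adjusted p 0.000958). At 24 h the 2 TAM arrays of the main probe set lay far apart, at 1156 and 1919.6 units. EREG at 24 h likewise read 2121 and 1512 units on them, where the EtOH arrays read 1599, 1431 and 1498 units, and its log2 change of 0.25 had an interval of -0.16 to 0.66.

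EGFR in siSTAT3 cells read 5921 ± 360 units with EtOH against 5293 ± 135 units under TAM at 4 h (SD, n = 3), without overlap and with an interval of the log2 change of -0.33 to 0.01. At 24 h it read 5004, 4581 and 4482 units with EtOH and 5532 and 4738 units with TAM, so that the ranges overlapped and the interval was -0.06 to 0.32. ERBB3 at 24 h read 728, 770.4 and 694 units with EtOH and 799 and 955 units with TAM. Both TAM arrays were above the EtOH arrays, and the interval of the log2 change was -0.03 to 0.54. ERBB2 and LRIG1 did not pass at either time, with log2 changes of -0.05 and -0.10 at 4 h and 0.03 and -0.50 at 24 h.

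The difference between the TAM effects in siSTAT3 and siNEG cells was tested directly. At 4 h only ERRFI1 differed, with a TAM effect higher in siSTAT3 cells by 0.88 on the log2 scale (SE 0.13, adjusted p 0.00269). That is 1 gene higher and 0 lower of 10, where 0.192% of all genes were higher and 0.329% lower. At 24 h ERRFI1, ERBB3 and EGFR were higher and TGFA was lower, 3 and 1 of 10, where 3.42% and 2.49% of all genes were. The median difference of TAM effects at 24 h was 0.25 over the 10 genes and 0.03 over all genes.

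TGFA had a TAM effect at 24 h that was lower in siSTAT3 cells by 0.86, with a log2 difference of -0.86 (SE 0.14, adjusted p 0.000870). For ERRFI1 the difference was 0.90 (SE 0.13, adjusted p 0.000516), with the effect above 0 in siSTAT3 cells and below 0, uncalled, in siNEG cells. For ERBB3 it was 0.76 (SE 0.18, adjusted p 0.0237). The ERBB3 call was lost without siNEG EtOH 24 h replicate 2, siNEG TAM 24 h replicate 2, siSTAT3 EtOH 24 h replicate 1 or 3, or siSTAT3 TAM 24 h replicate 3, with adjusted p up to 0.162. EGFR differed by 0.48 (SE 0.12, adjusted p 0.0328), a call lost without 8 of the 11 arrays compared, all but siNEG TAM 24 h replicate 2, siSTAT3 EtOH 24 h replicate 1 and siSTAT3 TAM 24 h replicate 3, with adjusted p up to 0.166.

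EREG, which rose with TAM at 24 h in siNEG cells, differed by -0.82 (interval -1.37 to -0.27) with an adjusted p of 0.104. HBEGF differed by -0.06 (interval -0.61 to 0.49), and its second probe set by 0.21 (SE 0.20, adjusted p 0.735). The other 4 genes had differences of 0.08 for LRIG1, 0.21 for BTC, 0.29 for NRG1 and 0.47 for ERBB2, none of which passed.

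**Figure D3:**
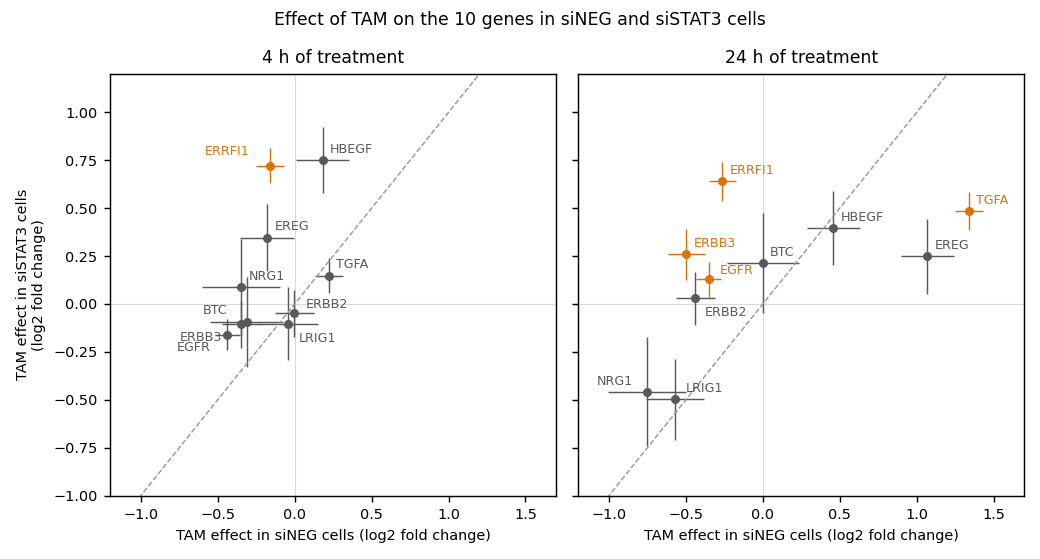
Log2 fold change with TAM in siNEG cells (horizontal) against that in siSTAT3 cells (vertical) for the 10 genes at 4 h (left) and 24 h (right), with SE bars and a dashed line where both effects are equal. Orange marks the genes whose effects differed in the interaction test, ERRFI1 at 4 h and ERRFI1, ERBB3, EGFR and TGFA at 24 h, and TGFA lies farthest to the right, at 1.34.

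With EtOH, siSTAT3 cells held more TGFA and HBEGF RNA than siNEG cells at 4 h, and more TGFA and less ERRFI1 at 24 h. At 4 h these were 2 higher and 0 lower of 10, where 1.88% of all genes were higher and 2.41% lower. At 24 h 1 was higher and 1 lower, where 1.40% and 1.46% were. These comparisons share their EtOH arrays with the comparisons above. Beside them, KRT14 read 14641 units in siNEG and 10072 units in siSTAT3 cells at 4 h, and 19925 and 12830 units at 24 h. CDH1 went the other way, with 7533 and 9794 units at 4 h and 6861 and 9291 units at 24 h. KRT5 read 15123 and 16077 units at 4 h and 17564 and 14885 units at 24 h. ITGB4 read 1547 and 1518 units at 4 h and 1758 and 1605 units at 24 h. The part of these markers in the results was not tested.

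TGFA at 4 h with EtOH read 2406, 2819 and 2392 units in siSTAT3 cells, each above the 3 siNEG arrays given above, a log2 difference of 0.64 (SE 0.09, adjusted p 0.000504). At 24 h the difference was 0.42 (SE 0.09, adjusted p 0.0202), and it was lost without siNEG EtOH 24 h replicate 1 or 3 or siSTAT3 EtOH 24 h replicate 1 or 2, with adjusted p up to 0.106. HBEGF at 4 h differed by 0.72 (SE 0.17, adjusted p 0.0293), from 1205, 1609 and 1274 units in siNEG cells. That call was lost without siNEG EtOH 4 h replicate 1 or 3 or siSTAT3 EtOH 4 h replicate 2 or 3, with adjusted p up to 0.140. The second HBEGF probe set was higher in siSTAT3 cells at both times, by 0.88 at 4 h (adjusted p 0.00112) and 0.74 at 24 h (adjusted p 0.00669).

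ERRFI1 at 24 h with EtOH was below the siNEG arrays on each siSTAT3 array, with a log2 difference of -0.42 (SE 0.09, adjusted p 0.0182). The adjusted p rose to as much as 0.0992 without siNEG EtOH 24 h replicate 1 or 2 or siSTAT3 EtOH 24 h replicate 3, and without siNEG EtOH 24 h replicate 1 no gene of the 10 passed. NRG1 at 4 h with EtOH read 167, 130.5 and 143 units in siNEG and 245, 356 and 208 units in siSTAT3 cells, without overlap, and the log2 difference of 0.85 had an adjusted p of 0.0916.

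With TAM for 4 h, 7 of the 10 genes were higher in siSTAT3 than in siNEG cells and 0 were lower, where 4.69% of all genes were higher and 4.61% lower. Among genes with a mean of at least 100 units 8.08% were higher. NRG1 belongs to these through its groups of 4 h, of which those of siSTAT3 cells were the highest. The median log2 difference was 0.57 over the 10 genes and 0.01 over all genes. The 7 were 4 ligands, TGFA, HBEGF, EREG and NRG1, the receptors EGFR and ERBB3, and ERRFI1. In the same groups KRT14 read 18807 units in siNEG and 10328 units in siSTAT3 cells and CDH1 7568 and 11555 units, and their part in the result was not tested.

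HBEGF read 1568, 1529.6 and 1502 units in siNEG and 3655, 3863 and 3686 units in siSTAT3 cells with TAM at 4 h. Every siSTAT3 array was far above every siNEG array, with a log2 difference of 1.28 (SE 0.17), 2.44-fold, and an adjusted p of 0.000103. NRG1 read 93.9, 145 and 111 units in siNEG and 279, 414 and 188 units in siSTAT3 cells, a log2 difference of 1.28 (SE 0.25, adjusted p 0.00386) without overlap. TGFA read 2694, 2821 and 2902 units in siSTAT3 cells, above all siNEG TAM arrays, with a log2 difference of 0.56 (SE 0.09, adjusted p 0.000602). ERRFI1 differed by 0.68 (SE 0.09, adjusted p 9.11e-05), again without overlap.

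The remaining 3 calls at 4 h with TAM were nearer the threshold. EREG read 2877, 2645 and 3296 units in siSTAT3 cells, a log2 difference of 0.73 (SE 0.17, adjusted p 0.0152), which was lost without siNEG TAM 4 h replicate 1 or 2 or siSTAT3 TAM 4 h replicate 3, with adjusted p up to 0.0845. ERBB3 read 351, 381 and 268 units, a log2 difference of 0.55 (SE 0.12, adjusted p 0.00833), and the adjusted p was 0.0510 without siSTAT3 TAM 4 h replicate 2. EGFR read 5318, 5147 and 5414 units, a log2 difference of 0.28 (SE 0.08, adjusted p 0.0435). The EGFR call was lost without any of the 6 arrays compared except siNEG TAM 4 h replicate 3 and without 11 of the other 17, with adjusted p up to 0.185, and also under quantile normalization.

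With TAM for 24 h, EGFR, ERBB3 and ERRFI1 were higher in siSTAT3 than in siNEG cells, and TGFA and EREG were lower. These were 3 and 2 of 10, where 9.72% of all genes were higher and 6.77% lower, and among genes with a mean of at least 100 units 16.4% were higher and 10.8% lower. KRT14 read 17966 units in siNEG and 11958 units in siSTAT3 cells here and CDH1 3082 and 11389 units, and their part in the result was not tested. ERBB3 read 427, 418 and 426 units in siNEG and 799 and 955 units in siSTAT3 cells, a log2 difference of 1.04 (SE 0.14), 2.06-fold, with an adjusted p of 3.54e-05. EGFR differed by 0.63 (SE 0.09, adjusted p 0.000108) and ERRFI1 by 0.48 (SE 0.10, adjusted p 0.00352). For these 3 genes the groups did not overlap. HBEGF did not pass here, with a log2 difference of 0.56. Its second probe set averaged 403 units in siNEG and 774 units in siSTAT3 cells, and the mean of its 2 sets above 100 units passed (log2 0.75, adjusted p 0.000236).

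TGFA at 24 h with TAM was lower in siSTAT3 cells, 1829 and 1772 units against 2513, 2512 and 2291 units, the opposite sign to the other 3 conditions. The log2 difference was -0.44 (SE 0.10, adjusted p 0.00716), and the adjusted p was 0.0741 without siSTAT3 TAM 24 h replicate 3. EREG was also lower, by a log2 difference of -0.64 (SE 0.19, adjusted p 0.0395). This call was lost without siNEG TAM 24 h replicate 1 or 2, siSTAT3 EtOH 24 h replicate 3 or siSTAT3 TAM 24 h replicate 3, and without the last, whose signal was 1512 units, the adjusted p was 0.442. Without siSTAT3 TAM 24 h replicate 3 the count for this comparison was 3 of 10 genes in place of 5.

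**Figure D4:**
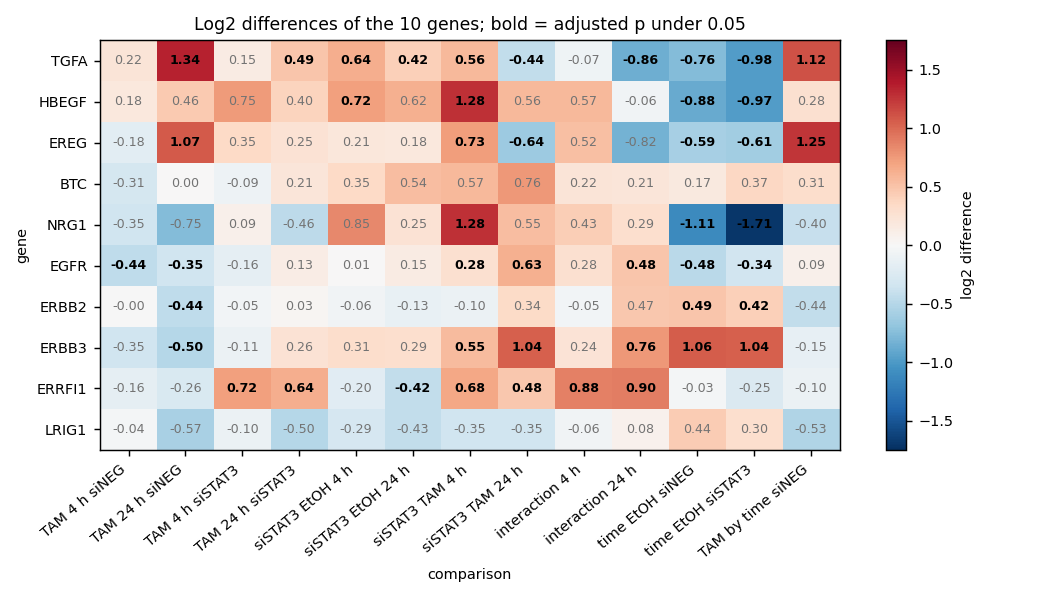
Log2 differences of the 10 genes (rows) in the 13 comparisons (columns), with red for higher and blue for lower and bold numbers where the adjusted p was under 0.05. In the column for siSTAT3 against siNEG with TAM at 4 h 7 genes are bold and all 7 are higher, and in both time columns TGFA, HBEGF, EREG, NRG1 and EGFR are lower while ERBB2 and ERBB3 are higher.

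Between 4 and 24 h with EtOH alone, 4 ligands and EGFR fell and ERBB2 and ERBB3 rose, with either siRNA. In siNEG cells 2 of 10 genes were higher and 5 lower at 24 h, where 6.82% of all genes were higher and 5.52% lower. The count was the same in siSTAT3 cells, where 8.14% of all genes were higher and 5.28% lower. Time after vehicle and time in culture cannot be told apart in this comparison.

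TGFA fell by 0.76 in siNEG cells (SE 0.09, adjusted p 3.45e-05) and by 0.98 in siSTAT3 cells (SE 0.09, adjusted p 1.88e-06) on the log2 scale. HBEGF fell by 0.88 (SE 0.17, adjusted p 0.00322) and by 0.97 (SE 0.17, adjusted p 0.00117). NRG1 fell by 1.11 (SE 0.25, adjusted p 0.00943) and by 1.71 (SE 0.25, adjusted p 0.000251), from 147 ± 18.8 to 67.6 ± 4.14 units in siNEG and from 269.6 ± 76.7 to 81.7 ± 17.4 units in siSTAT3 cells (SD, n = 3). EREG fell by 0.59 (adjusted p 0.0446) and by 0.61 (adjusted p 0.0330). The EREG calls were lost in siNEG cells without any of the 6 arrays compared and 8 of the other 17, and in siSTAT3 cells without any of the 6 but siSTAT3 EtOH 4 h replicate 1, with adjusted p up to 0.186 and 0.132.

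ERBB3 rose by 1.06 in siNEG cells (SE 0.12, adjusted p 2.28e-05), from 286 ± 17.4 to 599.9 ± 56.8 units, and by 1.04 in siSTAT3 cells (SE 0.12, adjusted p 2.20e-05), from 356 ± 37.6 to 731 ± 38.3 units (SD, n = 3). Its groups did not overlap with either siRNA. ERBB2 rose by 0.49 (adjusted p 0.0199) and by 0.42 (adjusted p 0.0423). The ERBB2 calls were lost without 4 and 10 arrays in turn: in siNEG cells replicates 1 and 3 of each group, and in siSTAT3 cells 5 of the 6 arrays compared, all but siSTAT3 EtOH 24 h replicate 1, and 5 of the other 17, with adjusted p up to 0.0918 and 0.151. EGFR fell by 0.48 (adjusted p 0.000954) and by 0.34 (adjusted p 0.0119), both lost with the mean of its probe sets, and in siSTAT3 cells it was also lost without siSTAT3 EtOH 4 h replicate 2 or siSTAT3 EtOH 24 h replicate 2 or 3, with adjusted p up to 0.0582. BTC, ERRFI1 and LRIG1 did not pass with either siRNA.

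Over the 8 groups, TGFA ran from 963 units in siNEG EtOH cells at 24 h to 2806 units in siSTAT3 TAM cells at 4 h. Its 2 lowest groups, the EtOH groups of 24 h, overlapped with no neighbour in the order of the means, whereas the 3 highest did overlap in turn. ERBB3 ran from 225 units in siNEG TAM cells at 4 h to 877 units in siSTAT3 TAM cells at 24 h, and its 4 groups of 24 h did not overlap with each other. ERRFI1 ran from 3141 units in siSTAT3 EtOH cells at 24 h to 6176 units in siSTAT3 TAM cells at 4 h, and its 2 siSTAT3 TAM groups stood clear above the rest and did not overlap with each other. The levels of ERBB2 and BTC overlapped between most neighbouring groups, with means of 468 to 706 and 161 to 375 units. LRIG1 had means of 282 to 539 units and passed in none of the 13 comparisons, nor did BTC.

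The result for a gene could depend on which probe set stood for it. EGFR has 9 probe sets, of which 5 had a mean of at least 100 units. Of these, the next-brightest was lower with TAM in siNEG cells at 4 h (log2 -0.39, adjusted p 0.0277) and at 24 h (log2 -0.31, adjusted p 0.0358), and 2 dim ones, with means of 121 units, passed in no comparison and had log2 changes of 0.26 to 0.64 with TAM in siNEG cells. The mean over the 5 sets gives the 2 dim ones the same weight as each of the others. With it in place of the brightest, the EGFR change with TAM in siNEG cells was -0.06 at 4 h and -0.03 at 24 h, and neither passed. That mean also ended the EGFR difference of TAM effects at 24 h (log2 0.21, adjusted p 0.434), the difference between the siRNAs with TAM at 4 h (log2 0.24, adjusted p 0.124) and the change with time in siNEG (log2 -0.05, adjusted p 0.769) and siSTAT3 cells (log2 -0.09, adjusted p 0.551). It kept the EGFR difference between the siRNAs with TAM at 24 h (log2 0.33, adjusted p 0.0408). ERBB3 has 5 probe sets, 3 of them above 100 units, and the second was higher in siSTAT3 TAM cells at 24 h by 0.93 (adjusted p 0.00160) but read -0.21 with TAM in siNEG cells at 24 h (adjusted p 0.518). With the mean of the 3 sets the ERBB3 change with TAM in siNEG cells was -0.25 (adjusted p 0.120), the difference of TAM effects at 24 h 0.24 (adjusted p 0.401), and that between siSTAT3 and siNEG cells with TAM at 4 h 0.25 (adjusted p 0.138). The mean of the 3 TGFA sets kept the call for TAM at 24 h in siNEG cells (log2 1.17, adjusted p 2.29e-06) and for the difference of TAM effects (log2 -0.71, adjusted p 0.0233). It lowered the TGFA difference between siSTAT3 and siNEG cells to 0.36 with EtOH at 4 h, 0.31 with TAM at 4 h and -0.23 with TAM at 24 h, none of which passed, and it also ended the TGFA call for TAM at 24 h in siSTAT3 cells (log2 0.46, adjusted p 0.0624). For EREG the mean of 2 sets gave 0.79 with TAM at 24 h in siNEG cells (adjusted p 0.000198) and 0.35 between siSTAT3 and siNEG cells with TAM at 4 h (adjusted p 0.0773). NRG1 has 6 probe sets, and only the one used here had a mean above 100 units. ERRFI1 has a single probe set.

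Of 41 other genes of the pathway, 34 were measured by a probe set with a single gene symbol. The list for receptor down-regulation had 12 measured members, among them ubiquitin ligases, endocytic adaptors, the phosphatase PTPN1 and UBASH3B, which is known to oppose CBL. Of these 12, 3 rose with TAM at 4 h and 3 at 24 h in siNEG cells and 0 fell, where 1.67% of all genes rose at 4 h and 6.06% at 24 h, or 9.80% of those with a mean of at least 100 units. SH3KBP1, an adaptor (CIN85) that links CBL to the endocytic machinery, rose by a log2 of 0.73 at 4 h (adjusted p 3.05e-05) and 1.29 at 24 h (adjusted p 5.35e-09). CBLC and CBLB, ubiquitin ligases of the receptor, rose by 0.64 (adjusted p 0.0208) and 0.37 (adjusted p 0.0423) at 4 h. Of 12 measured adaptors and signal carriers 0 passed at 4 h and 3 rose at 24 h, among them GAB1, a docking protein for PI3 kinase, by 1.14 (adjusted p 8.20e-06) and SOS2, an activator of RAS, by 0.62 (adjusted p 0.000167). Of 5 genes of ligand shedding 1 fell at 24 h, the protease ADAM10, by 0.23 on the log2 scale (adjusted p 0.04996), where 9.31% of all genes fell. The 5 measured other ligands and receptors, EGF, NRG2, NRG3, NRG4 and ERBB4, did not pass at either time. Their signals were low, with group means of at most 109 units for NRG2 and 55.9 units for the rest, so a change could go unseen. The ligands AREG and EPGN of that list were not among the genes measured. The median log2 change of the 12 down-regulation genes at 24 h in siNEG cells was 0.18, where that of all genes was -0.04. Over the 34 pathway genes, and over the adaptors and signal carriers, it was -0.004. Over the genes of shedding it was -0.13, and over the other ligands and receptors -0.08. In siSTAT3 cells 0 of the 34 passed with TAM at 4 h, and 2 rose and 0 fell at 24 h, where 2.00% of all genes rose. The TAM effect on SH3KBP1 was lower in siSTAT3 cells by a log2 difference of -0.57 at 4 h (adjusted p 0.0334) and -0.90 at 24 h (adjusted p 0.000149), and that on GAB1 by -0.92 at 24 h (adjusted p 0.00938). These were 1 and 2 of the 34 genes, where 0.329% and 2.49% of all genes were lower.

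By Pearson correlation of the 8 group means of log2 signal, the genes most like TGFA were VPS37B (r = 0.990), ELL2 (0.969) and PHLDA1 (0.965). For EREG SIPA1L1 came first (0.982), for HBEGF SAV1 (0.982), for NRG1 CCDC142 (0.984) and for BTC PKIB (0.987). The first for the receptors were UBE2F for EGFR (0.972), PEBP1 for ERBB2 (0.988) and ARL14 for ERBB3 (0.995), and for the inhibitors DEK for LRIG1 (0.991) and POM121L12 for ERRFI1 (0.924). These values describe 8 points that share their arrays, and a gene taken as the first of all is high by that choice.

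Promoter windows of RefSeq (GRCh38.p14), from 250 bases before to 50 after a start, were held for 8 of the 10 genes, not for ERBB3 and NRG1, with 13 windows in all. They were searched on both strands for the letters TTCNNNGAA, to which STAT factors are known to bind, and for TGANTCA. The latter is a looser form of the AP-1 site, which is TGAGTCA or TGACTCA. TTCNNNGAA was in 0 of the 13 windows and in 7.66% of 35116 windows of all genes. TGANTCA was in 3 of the 13, belonging to EGFR, ERBB2 and LRIG1, and in 7.71% of all windows. The matches that carry this count are shown, on the gene's strand from 5′ to 3′, with the matched letters in capitals.
EGFR at a downstream start, chr7:55109597-55109623: ctttcccatgTGAGTCAttgctagtca
EGFR at the same start, chr7:55109693-55109719: tataaactttTGACTCAcaggacaaat
ERBB2, chr17:39687862-39687888: ggagcggaagTGATTCAgagcgccccc
LRIG1 at a downstream start, chr3:66405917-66405943, minus strand: gggaagccatTGAGTCAtcggccatgg
LRIG1 at the same start, chr3:66405828-66405854, minus strand: gtcacaagtcTGACTCAgcacccagat
The ERBB2 match, TGATTCA, holds T in the middle place, where the AP-1 site holds G or C. None of the matches lay in the window of the most upstream start of EGFR or LRIG1. The ligands TGFA, HBEGF, EREG and BTC and the inhibitor ERRFI1 had neither set of letters. A match is a description of these letters, and no match says only that they are not in the window.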

How the data were processed

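RNA of 23 samples had been hybridized to Affymetrix U133 Plus 2.0 arrays, and the authors corrected background, normalized and summarised each probe set with the MAS5 algorithm. The deposited values are intensities on a linear scale, with a target value not given in the sources used here. Median signal per array was 73.5 to 85.3 units, 44.6% to 46.9% of probe sets reached 100 units, and the ratio of 3′ to 5′ signal was 1.21 to 1.44 for ACTB and 0.910 to 1.03 for GAPDH. The number of arrays limits the precision.

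Log2 signals, with nothing added, were fitted with 1 mean per group over all 23 arrays in limma 3.58.1 (R 4.3.3; 15 residual and 1.27 prior degrees of freedom), with Benjamini-Hochberg adjustment over 54675 probe sets. Intervals are 95%. Genes were named through the platform annotation, and all 10 gene IDs matched RefSeq. Named genes were the 10, STAT3, the pathway genes with the largest called changes (up to 3 each way with TAM and in the interactions) and the genes with the most similar group means. The members and lists were chosen with earlier results of these data known. Alternatives were a low-signal filter, an intensity trend, a pseudocount of 16, quantile normalization, the mean of a gene's probe sets, only the arrays compared, a replicate block, the limits of the methods (p of 1e-04 and log2 of 0.5) and leaving out each array. On simulated data, 47 of 100 probe sets changed by a log2 of 0.5 and 87 of 100 changed by 1 were recovered for TAM at 24 h. For the interaction 6 and 66 of 100 were recovered, over 54675 probe sets. Among unchanged probe sets 8 were called in each comparison. Fewer probe sets were changed than genes were called in the data, so these rates need not hold there.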

Additional observations from a re-analysis of the deposited data

Results flagged for a closer look

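Of the 10 genes, ERRFI1, TGFA, ERBB3 and EGFR had TAM effects that differed between siSTAT3 and siNEG cells by a test of the difference itself. ERRFI1 differed at 4 h by 0.88 on the log2 scale and at 24 h by 0.90, with the higher effect in siSTAT3 cells. TGFA differed at 24 h by -0.86, its TAM effect being 1.34 in siNEG and 0.49 in siSTAT3 cells. ERBB3 and EGFR differed at 24 h by 0.76 and 0.48, with effects of -0.50 and -0.35 in siNEG cells that passed the test and of 0.26 and 0.13 in siSTAT3 cells that did not. With the mean of each gene's probe sets the differences were 0.24 for ERBB3 and 0.21 for EGFR, and neither passed, nor did the changes in siNEG cells, at -0.25 and -0.03.

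Between the times, the TAM effect in siNEG cells was higher at 24 h than at 4 h by 1.12 for TGFA and by 1.25 for EREG, again by a test of the difference.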

How the results depend on the processing

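Of 46 calls on the 10 genes, 28 held without each of the 23 arrays, and 11 held under all 7 settings other than the limits of the methods as well. These 11 were TGFA and EREG with TAM at 24 h in siNEG cells and between the times, TGFA and ERRFI1 in the difference of TAM effects at 24 h, HBEGF between the siRNAs with TAM at 4 h, ERBB3 with time under both siRNAs, and TGFA and NRG1 with time in siSTAT3 cells. For ERRFI1 and NRG1 only 1 probe set had a mean of at least 100 units, so the mean of probe sets left their log2 values as they were. No call changed direction under any of these settings. Few arrays per group limit all of this.

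Fitting only the arrays compared leaves fewer arrays for the spread. The counts for TAM in siNEG cells were then 0 at 4 h and 3 at 24 h. In the fit to all arrays 3 genes had an unadjusted p under 0.05 at 4 h, and such counts follow in brackets. The share of all genes with an unadjusted p under 0.05 was not computed, so these unadjusted counts stand without it. For TAM in siSTAT3 cells the counts were 0 at 4 h and 0 at 24 h (2 and 3). Between the siRNAs they were 0 with EtOH at 4 h and 0 at 24 h (5 and 6), and 1 with TAM at 4 h and 0 at 24 h (8 at each). For the difference of TAM effects they were 0 at 4 h (4) and 2 at 24 h, and for time 1 and 3 in siNEG and siSTAT3 cells. This fit ended 35 of the 46 calls. Among those ended were ERRFI1 with TAM in siSTAT3 cells at 4 h (adjusted p 0.355) and 24 h (0.325) and its difference of TAM effects at 4 h (0.0792). EGFR (0.130) and ERBB3 (0.0522) between the siRNAs with TAM at 24 h were also ended. At the limits of the methods the counts for TAM were 0 and 2 in siNEG cells at 4 and 24 h (1.51% and 6.11% of all genes). In siSTAT3 cells at 24 h the count was 1 (1.21%). Between the siRNAs the counts were 1 and 0 with EtOH (1.48% and 1.25%) and 3 and 2 with TAM (3.51% and 7.15%). They were 2 for the difference of TAM effects at 24 h (2.88%), 3 and 4 for time (3.87% and 4.58%), and 1 for TAM by time (2.7%). With low-signal probe sets left out, 9 genes passed with TAM at 24 h in siNEG cells and 2 at 4 h in siSTAT3 cells. With an intensity trend the counts were 8 and 2. Among the settings the share of all genes was computed only for the limits of the methods, so the other counts stand without it. The mean of a gene's probe sets gave 0 for TAM at 4 h in siNEG and 2 in siSTAT3 cells. It gave 3 between the siRNAs with TAM at 4 h and 2 for the difference of TAM effects at 24 h, and it ended 14 of the 46 calls. For BTC, NRG1, ERBB2, ERRFI1 and LRIG1 only 1 probe set had a mean of at least 100 units, so their log2 values could not change. Quantile normalization ended 1, EGFR between the siRNAs with TAM at 4 h.

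Leaving out each array in turn gave 1 to 2 genes for TAM in siSTAT3 cells at each time, 1 to 3 between the siRNAs with EtOH at 4 h, 0 to 3 at 24 h, 3 to 6 with TAM at 24 h, 2 to 4 for the difference of TAM effects at 24 h and 4 to 7 for time in siSTAT3 cells. The lowest of these came without siNEG EtOH 24 h replicate 1 (0 genes), siSTAT3 TAM 24 h replicate 3 (3), siNEG EtOH 24 h replicate 2 or siSTAT3 EtOH 24 h replicate 3 (2), and siSTAT3 EtOH 4 h replicate 2 or siSTAT3 EtOH 24 h replicate 2 or 3 (4).

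With the replicate number as a block, EGFR between the siRNAs with TAM at 4 h kept its log2 difference of 0.28 with an adjusted p of 0.0632, EGFR in the difference of TAM effects at 24 h had 0.48 and 0.0516, and EREG with time in siNEG cells had -0.59 and 0.0584, and the block ended no other call. The samples share only a number: deviations of same-numbered arrays had a median r of 0.0375, 18 of 77 pairs were over 0.1, and 14 of 23 arrays lay closest to their own number.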
